A study of Mus musculus with 32 samples.

Results

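The genes described here are 40 mouse genes of mitosis and chromosome segregation, the set that a dividing cell switches on to condense, align and separate its chromosomes and then to cleave. They were chosen by name, as a list of gene identifiers, by a rule that uses no value or threshold. The choice was made with earlier results of these data known. All 40 were among the 21237 probe sets of the deposited table, 1 probe set for each gene, and none was lost to a filter. The study set normal mouse urothelium, the lining epithelium of the bladder, beside BC57, a mouse bladder cancer line. It asked how far array measurements hold when little RNA is used, when the amplification kit changes and when the tissue was fixed in formalin. Each RNA source was split, and 1 part was fresh frozen (FF) while the other was fixed in formalin and embedded in paraffin (FFPE). There were 32 arrays in 12 groups. Frozen RNA was amplified with GeneChip WT Plus from 100 ng, the series' reference, on 2 arrays for each of urothelium and BC57. GeneChip WT Pico took 2 ng or 0.5 ng of frozen or of FFPE RNA, on 3 arrays for each combination. SensationPlus took 50 ng of FFPE RNA, again on 2 arrays for each source. The urothelium came from 9 mice of unstated age, sex and strain, and the sources used here do not say whether the RNA was pooled. BC57 is a single line grown in medium with serum, so it stands for cultured, dividing cells, and no cultured normal urothelium was part of the design.

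Mitosis is driven by cyclin-dependent kinase activity, which rises as mitotic cyclins accumulate and collapses when the anaphase-promoting complex (APC/C) marks those cyclins for destruction. Between these events, kinases of the Polo and Aurora families, the kinetochore with its checkpoint, and microtubule motors attach and pull the chromosomes, and a ring of actin, myosin and anillin closes between the daughter cells. Most of these genes are transcribed late in the cell cycle and are low in resting tissue, and normal adult urothelium is known as an epithelium that renews very slowly. In RNA from whole tissue or culture, fewer dividing cells and less RNA per dividing cell cannot be told apart.

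Many promoters of this class carry a pair of short elements, the cell cycle homology region (CHR, TTTGAA, or TTCAAA on the other strand) and the CCAAT box (CCAAT, or ATTGG on the other strand). RefSeq promoter windows on mouse build GRCm38.p6, from 250 bases before to 50 after each gene's start, were at hand for 33 of the 40 genes, with 35 windows because Ect2 and Prc1 have 2 each. TTTGAA on either strand was in the windows of 25 of the 33 genes, and in 17.9% of all 32851 windows. CCAAT on either strand was in the windows of 26 genes, against 37.4% of all windows, and 22 genes had both, against 6.95%. The letters TATAAA on either strand were in the window of 1 of the 33 genes and in 13.6% of all windows. Between 30 bases before and 50 after the start, a range chosen after the positions were seen, TTTGAA was in 23 of the genes and in 3.83% of all windows. A match is a description of letters and not of a bound site, and the 2 words can share no more than a single letter. The windows below run from 100 bases before to 30 after the start, 5′ to 3′ along the gene. They show the genes with the largest BC57 to urothelium difference of their role groups, where those have an entry, then Ccnb1 and Cks2, which differed least among genes with an entry. Capitals mark matches to TTTGAA and CCAAT on either strand, also where the window's end cuts one.
Mki67, chr7:135716350-135716479, minus strand: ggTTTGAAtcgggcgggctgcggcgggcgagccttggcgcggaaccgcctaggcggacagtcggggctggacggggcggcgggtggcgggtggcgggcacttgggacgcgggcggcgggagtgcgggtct
Plk1, chr7:122159335-122159464, plus strand: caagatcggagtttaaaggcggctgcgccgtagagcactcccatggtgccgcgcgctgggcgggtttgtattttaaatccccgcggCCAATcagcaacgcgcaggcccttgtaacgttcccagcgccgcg
Bub1, chr2:127831830-127831959, minus strand: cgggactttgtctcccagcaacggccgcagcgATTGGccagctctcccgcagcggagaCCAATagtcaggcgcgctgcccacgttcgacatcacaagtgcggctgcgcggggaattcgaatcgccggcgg
Ube2c, chr2:164769829-164769958, plus strand: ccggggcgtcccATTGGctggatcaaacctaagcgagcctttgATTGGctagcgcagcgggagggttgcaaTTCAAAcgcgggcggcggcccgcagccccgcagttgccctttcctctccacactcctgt
Hmmr, chr11:40733408-40733537, minus strand: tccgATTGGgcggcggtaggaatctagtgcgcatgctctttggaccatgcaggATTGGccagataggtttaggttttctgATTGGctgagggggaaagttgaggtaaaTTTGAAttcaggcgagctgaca
Anln, chr9:22389177-22389306, minus strand: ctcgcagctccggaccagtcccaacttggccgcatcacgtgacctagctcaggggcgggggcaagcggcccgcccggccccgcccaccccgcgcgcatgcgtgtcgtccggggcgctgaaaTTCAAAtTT
Ccnb1, chr13:100786457-100786586, minus strand: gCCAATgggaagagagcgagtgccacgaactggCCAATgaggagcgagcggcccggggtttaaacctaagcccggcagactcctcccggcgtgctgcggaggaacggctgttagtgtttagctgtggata
Cks2, chr13:51645132-51645261, plus strand: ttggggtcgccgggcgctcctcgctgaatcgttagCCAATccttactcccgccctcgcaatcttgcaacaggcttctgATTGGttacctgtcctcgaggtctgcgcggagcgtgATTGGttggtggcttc
Hmmr and Ube2c show the arrangement of CCAAT boxes before a CHR-like word near the start. In Plk1 the TTTGAA word begins 31 bases after the start, just outside the printed stretch. Bub1, Ccnb1 and Cks2 had CCAAT words and no TTTGAA in their windows, and Anln had TTTGAA words and no CCAAT.

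Averaged over the 40 genes, the values separated the 2 RNA sources on every array. The mean log2 RMA value (a background-corrected, normalized array signal) over the 40 probe sets was 4.69 to 4.81 on the 8 FF urothelium arrays and 7.59 to 7.87 on the 8 FF BC57 arrays. On FFPE arrays it was 4.76 and 4.77 in urothelium and 7.50 on both BC57 arrays with SensationPlus at 50 ng. With WT Pico it was 5.23 to 5.42 on the 6 FFPE urothelium arrays and 6.57 to 6.81 on the 6 FFPE BC57 arrays. BC57 arrays thus lay above urothelium arrays in every condition, with a gap that was narrowest in FFPE RNA amplified with WT Pico. Array-wide features moved with this: the median of all probe sets was 5.34 to 5.44 on FF urothelium arrays and 5.73 to 5.80 on FFPE WT Pico urothelium arrays, and 5.28 to 5.41 against 5.62 to 5.73 in BC57. The SD over all probe sets was 1.89 to 2.00 on the 16 FF arrays and 1.37 to 1.64 on the 12 FFPE WT Pico arrays. Marker genes of urothelium, stroma and leukocytes were not analysed here, because the files pair no gene names with identifiers and names were at hand only for the 40 genes.

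**Figure D1:**
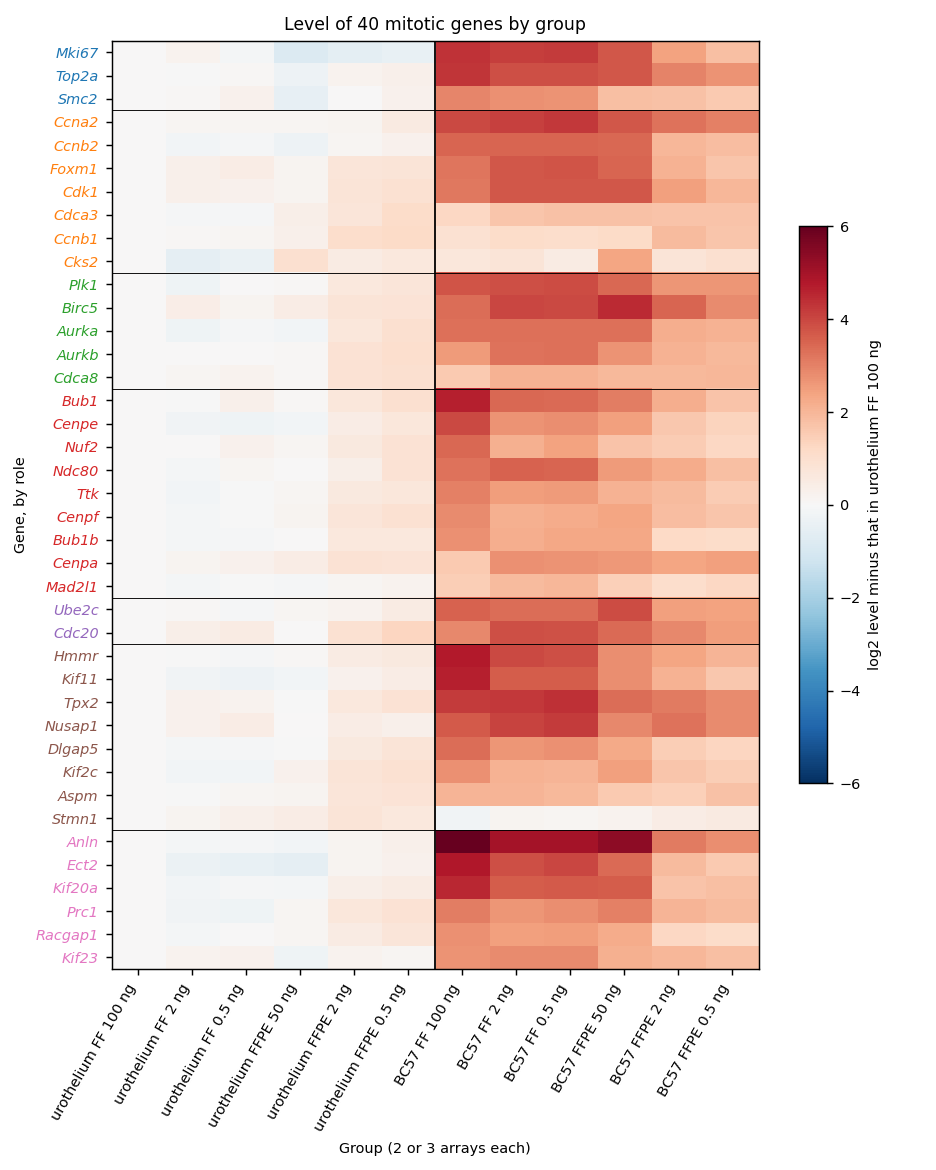
Mean log2 level of each of the 40 genes in the 12 groups, shown as the difference from the gene's own mean in urothelium FF 100 ng (colour bar, log2 units, n = 2 or 3 arrays a group); gene names are coloured and divided by role. BC57 columns are red for all genes but Stmn1. For most genes they are paler in the FFPE 2 ng and 0.5 ng columns than at FF 100 ng, with Ccnb1, Cenpa, Cdca3, Cdca8 and Cks2 among the exceptions. In the same FFPE columns several urothelium cells turn slightly red.

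In the reference, FF RNA at 100 ng, 37 of the 40 genes rose in BC57 by the criterion used throughout (limma, Benjamini-Hochberg adjusted p under 0.05 over all 21237 probe sets and a change of at least 2-fold, 1 on the log2 scale). The background share of probe sets called higher in this comparison was 8.06%, and the median log2 change was 3.24 over the 40 genes and 0.07 over all probe sets. By adjusted p alone, 39 genes were higher and 0 lower, and 27.6% of all probe sets were higher. None of the 40 was called lower in any of the 6 conditions, where the share of all probe sets called lower was 7.36%, 7.34% and 6.88% in FF RNA at 100, 2 and 0.5 ng and 6.48%, 2.42% and 1.45% in FFPE RNA at 50, 2 and 0.5 ng. In 39 of the 40, both BC57 arrays lay above both urothelium arrays, as did 43.9% of all probe sets. The p-values measure the spread between repeat arrays of the same RNA sources, with 2 arrays a group, and not the spread between animals or cultures.

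All 3 genes of chromosome structure and the proliferation marker group rose. Mki67 (ENSMUSG00000031004_at), which encodes the Ki-67 protein that coats mitotic chromosomes and is widely used to mark dividing cells, read 5.64 and 5.77 in urothelium and 9.98 and 10.08 in BC57. The fitted difference was 4.33 ± 0.07 on the log2 scale (SE; limma adjusted p = 3.15e-07), or 20.1-fold. Top2a, the topoisomerase that untangles sister DNA molecules, rose by 4.28, and Smc2, a core subunit of condensin, rose by 2.94.

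Of the 7 genes of the cyclin and CDK engine, 5 rose. Ccna2 (ENSMUSG00000027715_at), the A-type cyclin of S phase and mitotic entry, read 4.70 and 4.82 in urothelium and 8.65 and 8.76 in BC57, a change of 3.95 ± 0.08 (limma adjusted p = 4.3e-07). Ccnb2, a B-type cyclin, rose by 3.49, its kinase partner Cdk1 by 3.15 and Foxm1, a transcription factor that drives many genes of this class, by 3.21. Cdca3, a protein linked to mitotic entry, rose by 1.24. Ccnb1 and Cks2 were higher in BC57 but under 2-fold. Ccnb1 (ENSMUSG00000041431_at), the other B-type cyclin, read 3.27 and 3.01 in urothelium and 4.13 and 3.97 in BC57, a change of 0.91 ± 0.11 (limma adjusted p = 0.000734). Cks2 (ENSMUSG00000062248_at), a small subunit that binds Cdk1, read 6.43 and 6.44 against 7.08 and 7.19, a change of 0.70 ± 0.07 (limma adjusted p = 0.000194). In both genes the arrays of the 2 sources did not overlap. Without urothelium replicate 1 the Ccnb1 change was 1.04 and passed the criterion.

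All 5 mitotic kinases and chromosomal passenger genes rose, as did all 9 kinetochore and checkpoint genes and both APC/C genes. Plk1 (ENSMUSG00000030867_at), the Polo kinase of mitotic entry and spindle assembly, read 6.08 and 6.20 in urothelium and 9.98 and 9.87 in BC57 (change 3.78 ± 0.07, limma adjusted p = 4.46e-07). Birc5 (survivin) rose by 3.34, Aurka by 3.31, Aurkb by 2.54 and Cdca8 (borealin) by 1.55. Bub1 (ENSMUSG00000027379_at), a checkpoint kinase of the kinetochore, read 3.36 and 3.24 in urothelium and 7.85 and 8.03 in BC57, a change of 4.64 ± 0.09 (limma adjusted p = 4.29e-07). The smallest changes of the kinetochore group were those of Cenpa, the centromeric histone, at 1.58, and Mad2l1, the Mad2 checkpoint protein, at 1.46. Ube2c (ENSMUSG00000001403_at), the ubiquitin-conjugating enzyme of the APC/C, read 5.92 and 5.56 against 9.30 and 9.24 (change 3.53 ± 0.12, limma adjusted p = 2.51e-06), and Cdc20, its activator, rose by 2.86.

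Of the 8 spindle genes, 7 rose, and Stmn1 did not. Hmmr (ENSMUSG00000020330_at), a microtubule-associated protein of the spindle pole, read 3.10 and 3.20 in urothelium and 7.80 and 8.03 in BC57 (change 4.76 ± 0.10, limma adjusted p = 4.79e-07). Kif11, the kinesin that pushes spindle poles apart, rose by 4.66 and Tpx2, an activator of Aurka on the spindle, by 4.19. Stmn1 (ENSMUSG00000028832_at), a protein that destabilizes microtubules, read 4.81 and 4.74 in urothelium and 4.63 and 4.45 in BC57, a difference of -0.23 ± 0.09 that did not pass (limma adjusted p = 0.0687). In both sources these values lay under the medians of the reference arrays, 5.35 to 5.44. All 6 genes of the midzone and cytokinesis rose. Anln (anillin, ENSMUSG00000036777_at), the scaffold of the cleavage ring, had the largest change of the 40: it read 4.51 and 4.45 in urothelium and 10.48 and 10.53 in BC57, a change of 6.03 ± 0.06 (limma adjusted p = 1.23e-07) and a 65.2-fold difference. Ect2 (ENSMUSG00000027699_at), a protein needed for cytokinesis, rose by 4.82, and Kif20a, a midzone kinesin, by 4.55. Levels are not compared between genes, since each probe set has its own response.

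**Figure D2:**
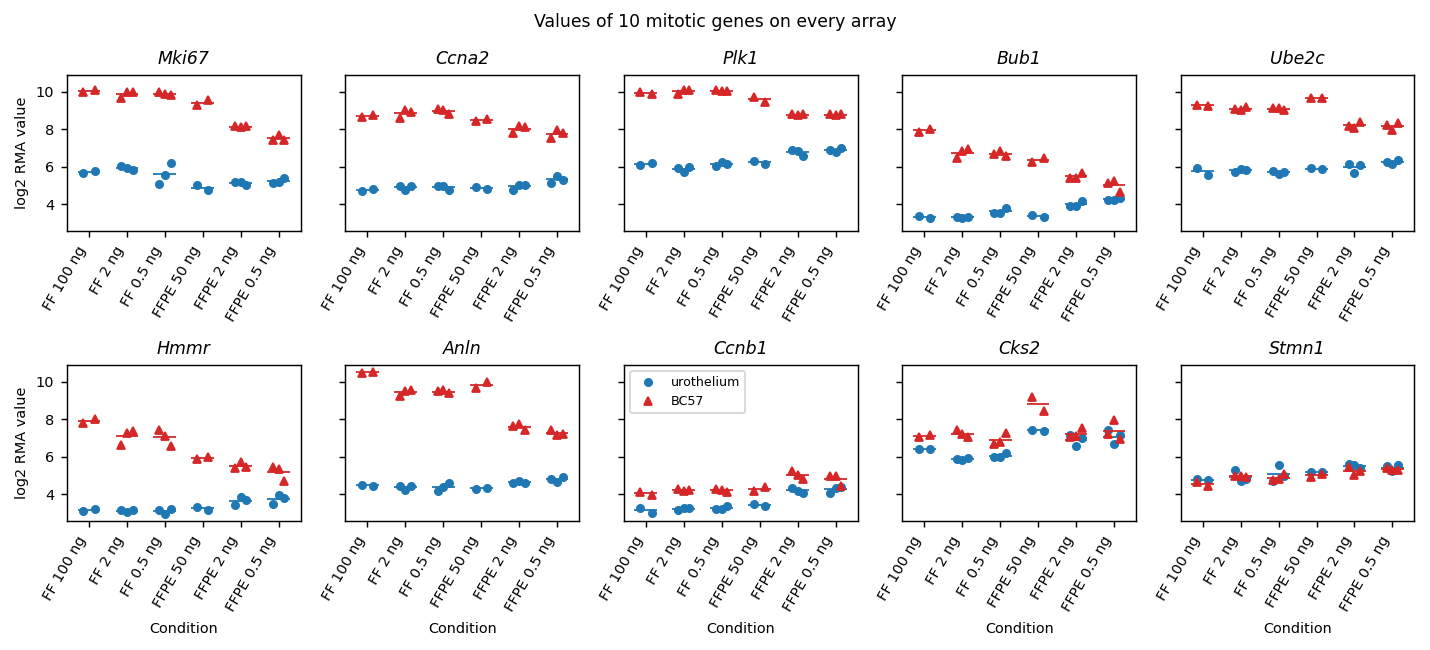
Log2 RMA values of 10 genes on all 32 arrays by condition (circles urothelium, triangles BC57, short lines group means of 2 or 3 arrays). The 7 genes with the largest change of their role group keep BC57 above urothelium everywhere, the distance shrinks in FFPE 2 ng and 0.5 ng, and the Stmn1 means of both sources lie close together, with all BC57 arrays below all urothelium arrays at FF 100 ng and FFPE 50 ng.

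RNA input cut to 2 ng and 0.5 ng with WT Pico kept nearly all of these calls in frozen RNA. At FF 2 ng 39 genes rose in BC57 (background 7.63%) and at FF 0.5 ng 37 (background 8.11%), with member medians of 3.25 and 3.17. The genes not called were Stmn1 at 2 ng, and Stmn1, Ccnb1 and Cks2 at 0.5 ng. Ccnb1 sat at the 2-fold line: its change was 1.0 ± 0.08 at 2 ng (limma adjusted p = 1.33e-06), falling to 0.97 without replicate 1 of either source, and 0.94 ± 0.10 at 0.5 ng (limma adjusted p = 1.59e-05), where it was 1.0 and passed without urothelium replicate 3. Cks2 changed by 1.35 ± 0.10 at 2 ng (limma adjusted p = 1.14e-06) and by 0.86 ± 0.15 at 0.5 ng (limma adjusted p = 0.000623). Going from 2 ng to 0.5 ng gave 0 calls among the 40 genes in either source (background 0.0188% in urothelium and 0.00471% in BC57). An unadjusted limma p under 0.05 was found for 2 and 1 genes, beside 9.77% and 4.96% of all probe sets. The largest spread between arrays was that of Mki67 in urothelium at FF 0.5 ng, which read 5.06, 5.54 and 6.19, while its BC57 arrays stayed between 9.82 and 9.97.

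Between WT Pico and WT Plus in frozen RNA, where kit and input change together, a few BC57 levels differed while 0 of the 40 genes were called in urothelium. In BC57, 2 genes were higher and 5 lower at FF 2 ng than in the reference (background 1.55% higher and 2.11% lower). At FF 0.5 ng 1 was higher and 5 lower (background 1.42% and 2.22%). In urothelium the counts at an unadjusted limma p under 0.05 were 12 and 10 genes, under the 45.5% and 36.8% of all probe sets that met it (background called, either direction, 4.04% and 3.87%). Anln, Bub1, Cenpe, Kif11 and Nuf2 were lower at both inputs, and Cenpa was higher at both. The 2 inputs share the reference arrays, so the repeat is not independent.

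Nuf2 (ENSMUSG00000026683_at), a subunit of the complex that grips microtubules at the kinetochore, read 7.05 and 7.07 in the BC57 reference, 5.60, 5.82 and 5.77 at 2 ng and 6.30, 5.95 and 5.78 at 0.5 ng. It fell by 1.33 ± 0.09 (limma adjusted p = 4.52e-07) and by 1.05 ± 0.18 (limma adjusted p = 0.00112). Every WT Pico array lay below both WT Plus arrays. Cenpa moved the other way, from 6.75 and 6.79 to 7.99, 7.90 and 7.93 with 2 ng and to 8.01, 7.96 and 7.71 with 0.5 ng. It rose by 1.17 ± 0.08 (limma adjusted p = 4.52e-07) and by 1.13 ± 0.11 (limma adjusted p = 1.45e-05). After quantile normalization of all arrays these rises were 0.98 and 0.93, under 2-fold. The counts were then 0 higher and 3 lower at 2 ng and 0 higher and 2 lower at 0.5 ng. Over all probe sets they were 252 higher and 280 lower, and 212 higher and 295 lower. Cdc20 rose by 1.02 ± 0.11 at 2 ng (limma adjusted p = 2.36e-05).

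The BC57 minus urothelium change itself differed between FF 2 ng and the reference for 4 genes (background 0.758%). On the log2 scale the difference was -1.33 for Nuf2, -1.20 for Bub1 and -1.03 for Cenpe, which had a smaller change at 2 ng, and 1.03 for Cenpa, which had a larger one. Without urothelium reference replicate 2 the count was 2. At FF 0.5 ng it differed for Bub1 and Nuf2 (background 0.65%), and the count was 1 without any 1 of 7 arrays: urothelium FF 0.5 ng replicate 3, BC57 FF 0.5 ng replicates 2 and 3, and each of the 4 reference arrays.

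**Figure D3:**
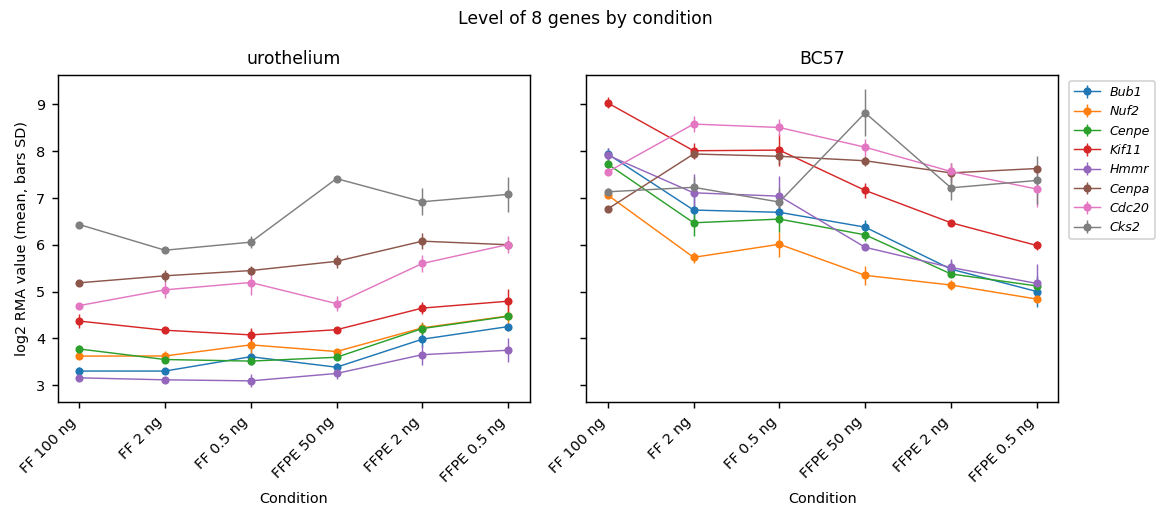
Mean log2 RMA values of 8 genes by condition in urothelium (left) and BC57 (right), with bars of 1 SD over 2 or 3 arrays; lines join the means of a gene and stand for no time or dose order. In BC57, Nuf2, Bub1, Cenpe and Kif11 step down and Cenpa and Cdc20 step up between FF 100 ng and FF 2 ng, while in urothelium no step between FF conditions was called.

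FFPE RNA with SensationPlus at 50 ng gave 38 of the 40 genes as higher in BC57 (background 9.19%), with a median change of 2.67 over the 40 and -0.01 over all probe sets. Ccnb1 (0.85 ± 0.12, limma adjusted p = 0.00208) and Stmn1 (-0.19 ± 0.10, limma adjusted p = 0.173) were not called. Cks2 passed here, reading 7.45 and 7.38 in urothelium and 9.18 and 8.47 in BC57, a change of 1.41 ± 0.22 (limma adjusted p = 0.00324). After quantile normalization the Cks2 change was 0.97 and no longer reached 2-fold. The change was smaller than in the reference for 7 genes and larger for 0 (background called lower 0.655% and higher 0.876%). The difference was -2.06 for Hmmr, -1.81 for Nuf2, -1.68 for Kif11, -1.65 for Bub1 and -1.33 for Cenpe, and the other two genes were Dlgap5 and Ttk. Dlgap5 is a spindle protein and Ttk a checkpoint kinase, so all 7 are of the spindle or the kinetochore and checkpoint groups. These groups hold 8 and 9 of the 40 genes, and a difference between role groups was not tested. After quantile normalization the count was 4, while the number of all probe sets called lower went from 139 to 113. With dim probe sets left out it was 2 of 30 genes tested, and Hmmr, Nuf2, Bub1, Cenpe and Ttk were among those left out.

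Hmmr had the largest of these differences. It read 3.34 and 3.16 in urothelium and 5.90 and 5.99 in BC57 on FFPE 50 ng arrays, so the BC57 value lay 1.97 ± 0.10 below its reference value (change -1.97, limma adjusted p = 2.34e-05). Within BC57, 8 genes were lower and 3 higher at FFPE 50 ng than at FF 100 ng (background 2.47% and 2.24%), a comparison in which fixation, kit and input all change. The lower ones were Bub1, Cenpe, Dlgap5, Ect2, Hmmr, Kif11, Nuf2 and Smc2. The higher ones were Birc5 at 1.16, Cenpa at 1.03 and Cks2 at 1.69 ± 0.19 (limma adjusted p = 0.000409). In urothelium 0 of the 40 were called (background 7%), with 12 at an unadjusted limma p under 0.05, which 65% of all probe sets reached. Without FFPE 50 ng replicate 2, 1 gene was called.

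In FFPE RNA amplified with WT Pico the difference between BC57 and urothelium was smaller, and fewer genes passed. At FFPE 2 ng 29 of the 40 rose in BC57 (background 4.94%), and at FFPE 0.5 ng 23 did (background 3.05%). The medians were 1.48 and 1.07 over the 40 genes and -0.10 and -0.08 over all probe sets. By adjusted p alone 38 and 36 genes were higher, beside 18.4% and 8.97% of all probe sets. All BC57 arrays lay above all urothelium arrays for 38 genes at 2 ng, with Cks2 and Stmn1 as the exceptions, and for 37 at 0.5 ng, with Nuf2 as the third (background 22.2% and 15.7%). So the direction held for most genes while the size fell under the 2-fold line for many.

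By role, the calls left at the lowest input were as follows. At FFPE 0.5 ng all 3 chromosome structure and marker genes were called, both APC/C genes, 4 of 5 kinases and passengers and 5 of 6 midzone and cytokinesis genes, but 4 of 8 spindle genes, 3 of 7 engine genes and 2 of 9 kinetochore and checkpoint genes. The 2 kinetochore and checkpoint genes still called were Cenpa, at 1.63 ± 0.09 (limma adjusted p = 0.000104), and Mad2l1, at 1.01, the ones with the smallest changes in the reference. Nuf2 read 4.30, 4.84 and 4.29 in urothelium and 4.83, 4.78 and 4.90 in BC57 there, a difference of 0.36 ± 0.16 (limma adjusted p = 0.17) against 3.44 in the reference, and the arrays of the 2 sources overlapped. Bub1 read 4.21, 4.23 and 4.30 against 5.13, 5.24 and 4.63, a change of 0.75 ± 0.16 (limma adjusted p = 0.0211) that was under 2-fold without overlap. Mki67 read 5.13, 5.20 and 5.41 in urothelium and 7.44, 7.66 and 7.42 in BC57, a difference of 2.26 ± 0.12 (limma adjusted p = 8.4e-05). The difference of loss between role groups was not tested.

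Counted over all conditions, 22 genes were called in all 6 comparisons of BC57 with urothelium, 8 in 5 and 7 in 4. Of all probe sets, 2.02%, 1.46% and 2.75% were called higher in 6, 5 and 4. Cks2 was called in 2, Ccnb1 in 1 and Stmn1 in 0. The 6 comparisons use different arrays, but the RNA sources are the same.

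The size of the change was compared with the reference gene by gene. Over the 39 genes without Stmn1, the median ratio of the change to that in the reference was 0.947 at FF 2 ng, 0.992 at FF 0.5 ng and 0.887 at FFPE 50 ng. It was 0.494 at FFPE 2 ng and 0.411 at FFPE 0.5 ng. The same median over the 1711 probe sets called higher in the reference was 0.909, 0.942 and 0.978, then 0.570 and 0.449. Those probe sets were picked by their call in the reference, whose change divides each ratio. The 40 genes were picked by name, and 37 of them are among the 1711, so the 2 sets of medians are not like for like. Single genes ranged from 0.213 to 0.924 at FFPE 2 ng and from 0.105 to 1.03 at FFPE 0.5 ng. Over the 40 genes, Pearson's r between the changes in a condition and in the reference was 0.904 with 2 ng and 0.910 with 0.5 ng of frozen RNA, 0.835 with SensationPlus, and 0.705 and 0.582 with the same inputs of FFPE RNA. Genes are not independent replicates, and the 5 values share the reference arrays, so these are descriptions.

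**Figure D4:**
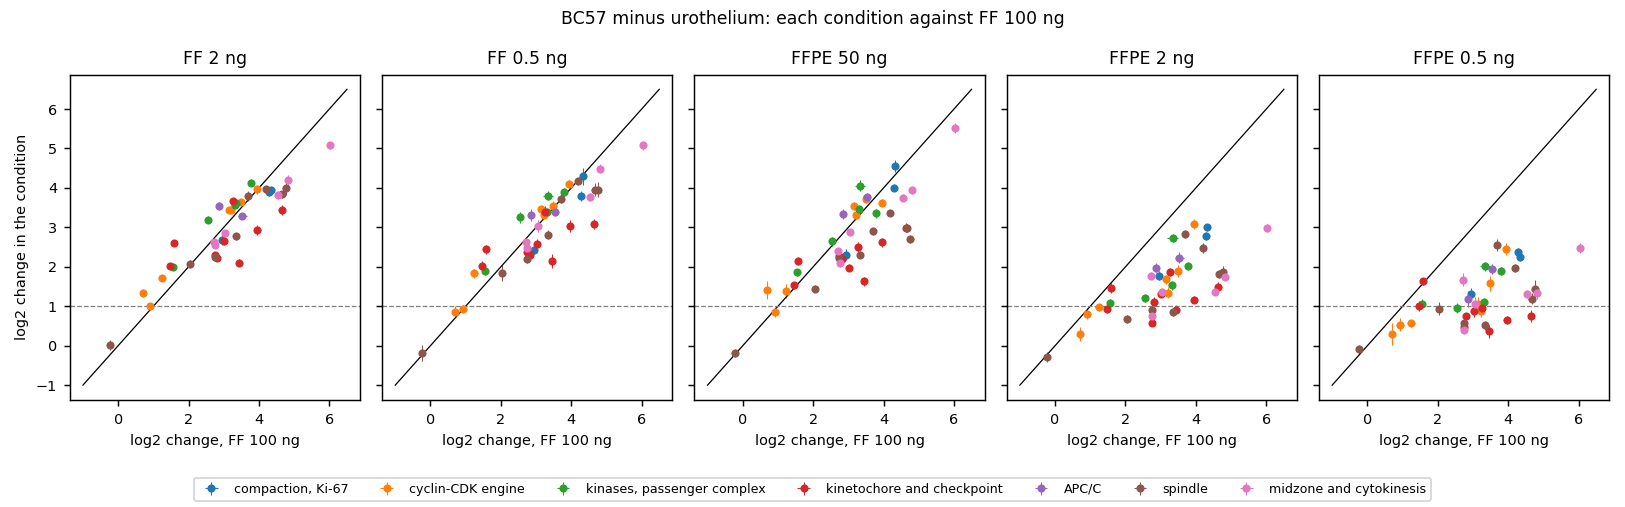
BC57 minus urothelium log2 change of the 40 genes in each condition (vertical) against FF 100 ng (horizontal), coloured by role, with bars of 1 SE; the solid line marks equal change and the dashed line a change of 1. Points scatter about the line in FF and FFPE 50 ng. Without Stmn1, single-gene ratios run from 0.613 to 1.92 at FF 2 ng and from 0.473 to 2.01 at FFPE 50 ng. Nearly all points fall below the line in FFPE 2 ng and 0.5 ng, where the median ratios without Stmn1 are 0.494 and 0.411.

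Tested directly, the change was smaller than in the reference for 28 genes at FFPE 2 ng and 33 at FFPE 0.5 ng, and larger for 0 (background called lower 2.56% and 3.18%, called higher 3.76% and 4.28%). At 2 ng the largest differences were those of Kif20a, at -3.17 ± 0.13 (limma adjusted p = 4.88e-07), Bub1, at -3.14, Ect2, at -3.08, Anln, at -3.05, and Hmmr, at -2.90. At 0.5 ng they were those of Bub1, at -3.89 ± 0.23 (limma adjusted p = 5.39e-06), Anln, at -3.55, Ect2, at -3.50, Kif11, at -3.47, and Hmmr, at -3.33. Of the 9 kinetochore and checkpoint genes, 7 had a smaller change at either input. Cenpa, with a difference of 0.05 ± 0.11 at FFPE 0.5 ng (limma adjusted p = 0.799), and Mad2l1, at -0.46 (limma adjusted p = 0.0985), were the ones not called. Set against FF RNA of the same kit and input, 30 genes had a smaller change at FFPE 2 ng than at FF 2 ng, and 33 at FFPE 0.5 ng than at FF 0.5 ng, with 0 larger (background called lower 2.64% and 3.34%, called higher 4.31% and 4.07%). By this comparison all 9 kinetochore and checkpoint genes were called at 2 ng, Cenpa among them at -1.14, and 8 at 0.5 ng, where Cenpa was at -0.81 (limma adjusted p = 0.0015). After quantile normalization of all arrays the 4 counts were 14, 18, 12 and 21, all lower. The numbers of all probe sets called lower in these 4 tests fell as well, from 544, 675, 561 and 709 to 234, 272, 290 and 284.

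With kit and input held at WT Pico, many of the 40 genes were lower in FFPE than in frozen RNA in BC57, while few were called in urothelium, all of them higher. In BC57, 19 genes were lower in FFPE than in FF RNA at 2 ng and 28 at 0.5 ng, and 0 were higher (background called lower 5.54% and 8.36%, called higher 2.72% and 6.87%). The medians of the 40 were -0.96 and -1.22, while all probe sets had medians of 0.28 and 0.39. In urothelium, 1 gene was higher at 2 ng and 5 at 0.5 ng, and 0 were lower (background called higher 12.4% and 18%, called lower 10.3% and 10.2%). The medians there were 0.58 and 0.68, beside 0.39 and 0.47 over all probe sets. The share of genes called in urothelium lay under the background. Starting levels differed between the sources. The mean over the 40 genes in frozen urothelium was 4.72 at 2 ng and 4.78 at 0.5 ng, under the array medians of 5.34 to 5.42. In frozen BC57 it was 7.73 and 7.75. How far the low levels in urothelium limited a fall there was not tested.

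In BC57 the largest fall was that of Ect2, which read 8.0, 8.36 and 8.39 in FF and 6.31, 6.38 and 6.14 in FFPE RNA at 2 ng, and 8.51, 8.47 and 8.29 against 6.16, 5.64 and 6.11 at 0.5 ng. It fell by 1.97 ± 0.12 (limma adjusted p = 7.82e-08) and by 2.45 ± 0.14 (limma adjusted p = 7.16e-08). All FFPE arrays lay below all FF arrays at either input. Kif20a fell by 1.91 and 1.89, Anln by 1.84 and 2.20, and Mki67 by 1.73 and 2.38. At 0.5 ng the fall was called for all 3 chromosome structure and marker genes, 4 of 7 engine genes, 4 of 5 kinases and passengers, 6 of 9 kinetochore and checkpoint genes, 1 of 2 APC/C genes, 5 of 8 spindle genes and 5 of 6 midzone and cytokinesis genes. Ccnb1, Cks2 and Stmn1 had positive values instead, 0.58, 0.46 and 0.45, none of 2-fold. Cdca3 and Cdca8 had values of -0.09 and -0.08 (limma adjusted p = 0.42 and 0.466).

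In urothelium the gene called at 2 ng was Cks2, which read 5.87, 5.85 and 5.93 in FF and 7.16, 6.60 and 7.0 in FFPE RNA, a rise of 1.04 ± 0.16 (limma adjusted p = 4.36e-05). The 5 genes called at 0.5 ng were Aurka, Cdca3, Cks2, Kif2c and Prc1. Cdca3 had the largest rise, from 5.03, 5.08 and 5.08 to 6.30, 6.20 and 6.26, which was 1.19 ± 0.10 (limma adjusted p = 4.75e-07). Mki67 went the other way in urothelium, with a difference of -0.80 ± 0.09 at 2 ng (limma adjusted p = 3e-06) and of -0.35 ± 0.21 at 0.5 ng (limma adjusted p = 0.146). The urothelium calls changed with the scaling of the arrays, and the cause was not tested. After centring each array on its median, which moved the median of all probe sets from 0.39 to 0.00 at 2 ng and from 0.47 to 0.06 at 0.5 ng, the urothelium counts were 0 higher and 1 lower at 2 ng and 0 in either direction at 0.5 ng. Over all probe sets the same step turned 2637 higher and 2177 lower at 2 ng into 490 and 3831. At 0.5 ng it turned 3832 higher and 2175 lower into 724 and 3758. After quantile normalization the urothelium counts were 2 higher and 1 lower, and 4 higher, and the medians of the 40 were -0.04 and 0.03. Over all probe sets it gave 1034 higher and 1368 lower at 2 ng, and 1255 and 1634 at 0.5 ng. Leaving out single arrays gave 0 genes without FFPE 2 ng replicate 1 and 2 without FF 2 ng replicate 3. At 0.5 ng it gave 3 without FF 0.5 ng replicate 1 and 8 without its replicate 3. In BC57, 27 and 31 genes were lower after centring, with medians of -1.25 and -1.61. After quantile normalization 10 and 16 were lower, with medians of -0.59 and -0.73. Over all probe sets, 1176 and 1776 were called lower in BC57 as reported. These numbers became 2207 and 3403 after centring and 520 and 898 after quantile normalization, so the background moved with the scaling too. The number with positive values in BC57 went from 3 to 6 at 2 ng and from 3 to 4 at 0.5 ng after quantile normalization, and 0 were called higher under either scaling.

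**Figure D5:**
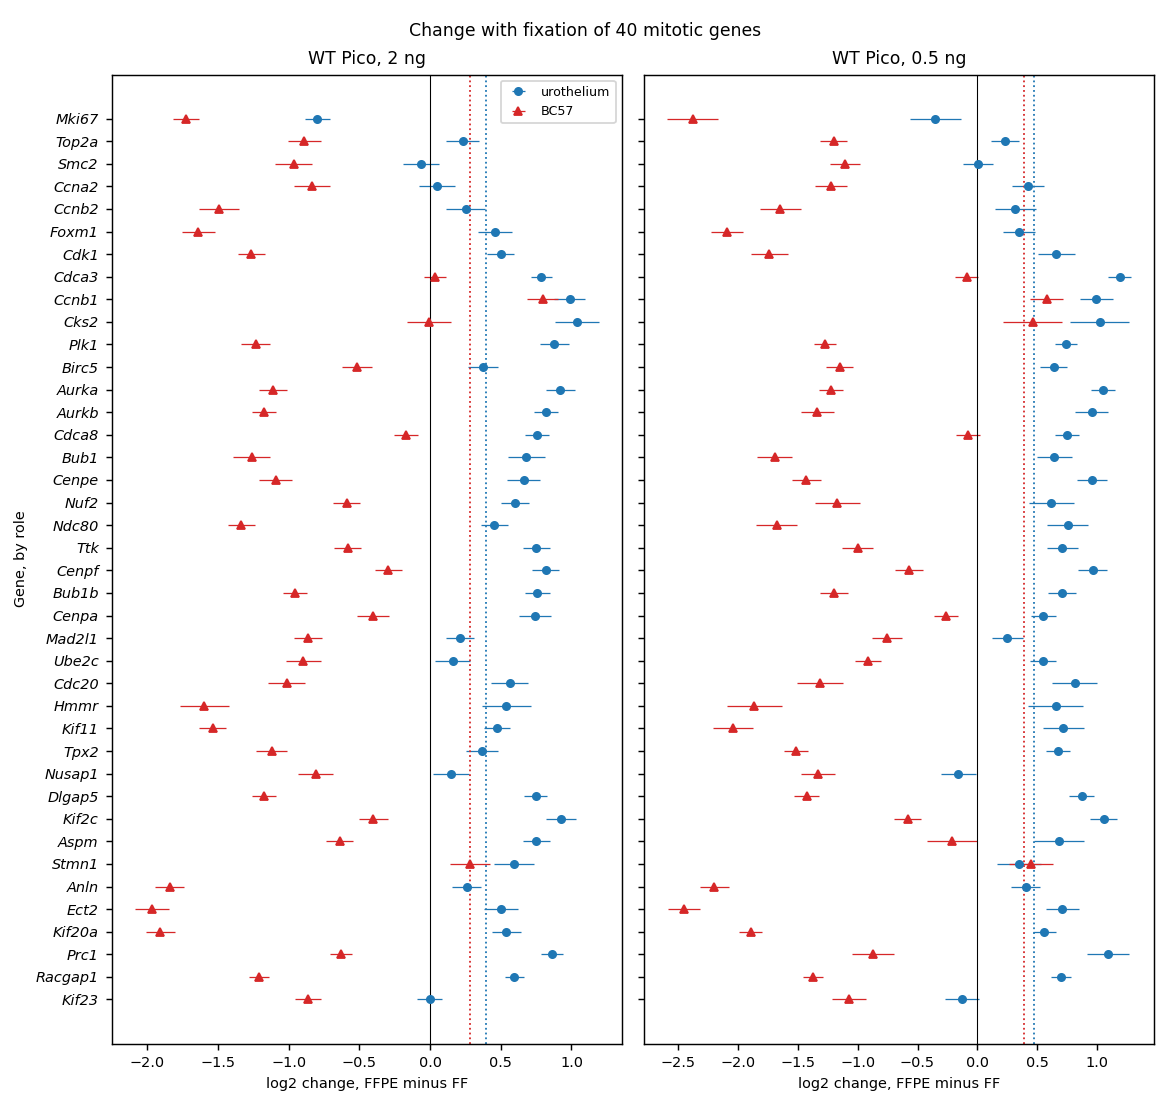
Log2 change from FF to FFPE RNA of each of the 40 genes with WT Pico at 2 ng (left) and 0.5 ng (right), circles for urothelium and triangles for BC57, with bars of 1 SE; dotted lines mark the median change of all probe sets in each source. Most BC57 points lie left of 0 and most urothelium points right of it, with Ccnb1, Cks2, Cdca3, Cdca8 and Stmn1 among the BC57 points nearest to or above 0.

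Between the 2 FFPE kits, where input also differs, 12 of the 40 genes were lower in BC57 with WT Pico at 2 ng than with SensationPlus at 50 ng and 0 higher (background 4.62% and 2.72%). In urothelium 0 were called (background 7.85%), while 36 had an unadjusted limma p under 0.05, as did 62.5% of all probe sets. Positive values were found for 39 of the 40, with a median of 0.49 beside 0.21 over all probe sets. Anln had the largest difference in BC57, reading 9.67 and 10.01 with SensationPlus and 7.66, 7.73 and 7.45 with WT Pico, lower by 2.22 ± 0.12 (change -2.22, limma adjusted p = 9.92e-07). The others were Mki67, Ccnb2, Cdk1, Birc5, Aurka, Bub1b, Foxm1, Ube2c, Kif20a, Ect2 and Cks2, with falls from 1.02 to 1.91. Cks2 fell by 1.60 ± 0.23 (limma adjusted p = 0.000312), which returned it to 7.04, 7.09 and 7.53. Hmmr, Nuf2, Cenpe and Kif11, which were already lower with SensationPlus than in the reference, were not called here. Cutting FFPE input from 2 ng to 0.5 ng gave 0 calls among the 40 genes in either source (background 0% in urothelium and 0.0188% in BC57). There were 8 and 15 genes at an unadjusted limma p under 0.05, beside 14.4% and 23.8% of all probe sets. Values were positive for 36 genes in urothelium, with a median of 0.14 beside 0.06 over all probe sets. For BC57 they were positive for 8, with a median of -0.20 beside 0.09. In BC57, Mki67 (-0.63) and Birc5 (-0.66) passed the adjusted p without reaching 2-fold (limma adjusted p = 0.0464 for both).

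The spread of the 40 genes between repeat arrays, as the root mean square of their SD, was lowest in the BC57 reference, at 0.08, and ran from 0.10 to 0.22 elsewhere. The largest SD of a single gene was 0.57. RefSeq lists pseudogene copies named after Ccnb1, Ccnb2, Aurkb and Stmn1, and whether their transcripts reach these probe sets was not tested. The copies of Ccnb1 and Stmn1 include ones that RefSeq annotates as transcribed.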

How the data were processed

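Expression was measured on 32 arrays of RNA from urothelium and BC57, each FF and FFPE. The log2 values used are those the authors deposited, made with RMA in affy according to the submitters' processing notes. Versions, array design and probe build: not given in the sources used. Whether RMA was run over all 32 arrays together is not given either. Comparisons between conditions take the deposited values to be on a common scale. The table holds 21237 probe sets, and no pair of arrays was identical. Arrays have no read depth, so their number limits the precision.

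Changes were fitted in R 4.3.3 with limma 3.58.1 (lmFit, eBayes with trend = TRUE, two-sided), and p-values were adjusted by Benjamini-Hochberg over all probe sets. Calls needed an adjusted p under 0.05 together with a log2 change of 1 or more. A comparison of BC57 with urothelium used only the groups of its condition. Tests between conditions used the 4 groups involved, and so did tests of whether the BC57 to urothelium change differs between conditions. The series describes duplicates and triplicates of a sample, so arrays of a group were read as technical repeats. Same-numbered arrays were not paired: in no comparison with at least 3 pairs did the deviations of every pair correlate above 0.1. Between groups of 2 arrays the 2 correlations are equal by construction, and some were above 0.1. They were 0.155 for BC57 against urothelium at FFPE 50 ng. For FFPE 50 ng against FF 100 ng they were 0.139 in urothelium and 0.132 in BC57. The lowest correlations were -0.43 and -0.46, in BC57 between FF 0.5 ng and FF 2 ng. The reported fits therefore have no block, and a block was an alternative.

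The 40 genes and all lists were chosen with earlier results of these data known. Values per array are given for the gene with the largest change of each role group in the reference, for genes not called there, and for at most 5 of the largest differences between conditions and the largest rise and fall within a source. Other genes, such as Cdc20, are examples chosen after their values were seen. The 10 lists of related genes and the cell type markers were not analysed here, because names were at hand for the 40 genes alone. Promoter sequences are RefSeq's on GRCm38.p6. Alternatives were 2 other scalings, no trend, a filter on dim probe sets, all arrays in 1 fit, a replicate block and leaving out each array.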

Additional observations from a re-analysis of the deposited data

Results flagged for a closer look

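The BC57 minus urothelium change differed between conditions in a direct limma test of the difference (adjusted p under 0.05 and at least 1 on the log2 scale), and each such result is collected here as a value. Against FF 100 ng, 4 genes differed at FF 2 ng (background 0.758%). The differences were -1.33 for Nuf2, -1.20 for Bub1, -1.03 for Cenpe and 1.03 for Cenpa. At FF 0.5 ng 2 genes differed (background 0.65%), Bub1 by -1.55 and Nuf2 by -1.29. At FFPE 50 ng 7 genes differed, all lower (background called lower 0.655% and higher 0.876%). The 5 largest were -2.06 for Hmmr, -1.81 for Nuf2, -1.68 for Kif11, -1.65 for Bub1 and -1.33 for Cenpe.

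At FFPE 2 ng 28 genes differed from the reference, all lower (background called lower 2.56% and higher 3.76%). The largest values were -3.17 for Kif20a, -3.14 for Bub1, -3.08 for Ect2, -3.05 for Anln and -2.90 for Hmmr. At FFPE 0.5 ng 33 genes differed, all lower (background called lower 3.18% and higher 4.28%). They were led by Bub1 at -3.89, Anln at -3.55, Ect2 at -3.50, Kif11 at -3.47 and Hmmr at -3.33. With kit and input held at WT Pico, 30 genes differed between FFPE and FF RNA at 2 ng and 33 at 0.5 ng, all lower. The background called lower was 2.64% and 3.34%, and called higher 4.31% and 4.07%. The part that the narrower spread of values on FFPE WT Pico arrays has in these differences was not tested, beyond the quantile-normalized counts.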

How the results depend on the processing

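All 6 counts of genes higher in BC57 stayed within 1.5 times their value under every alternative run, and 0 genes were called lower in BC57 as reported. The replicate block, which uses numbers that pair nothing in the labels, gave 37, 39, 37, 38, 29 and 23 genes in the order FF 100, 2 and 0.5 ng and FFPE 50, 2 and 0.5 ng, and it changed no call of a named gene. Dropping the intensity trend or fitting all arrays together moved no count by over 1.5 times. Quantile normalization of all arrays moved the BC57 counts to 3 (FF 2 ng against FF 100 ng), 2 (FF 0.5 ng against FF 100 ng), 10 (FFPE against FF, 2 ng) and 16 (FFPE against FF, 0.5 ng). The urothelium counts became 1 (FFPE 50 ng against FF 100 ng) and 3 (FFPE against FF, 2 ng). Under it, the number of genes whose BC57 minus urothelium change differed against the reference became 2 (FF, 2 ng), 4 (SensationPlus), 14 (FFPE, 2 ng) and 18 (FFPE, 0.5 ng), and was 12 and 21 for FFPE against FF at 2 and 0.5 ng. In each of these comparisons the numbers of all probe sets called higher and called lower also fell under quantile normalization. Centring arrays on their medians left 0 of the 5 urothelium calls for FFPE against FF at 0.5 ng. Keeping probe sets above the median of mean levels left 30 of the 40 genes to test, dropping Ccnb1, Bub1, Cenpe, Kif2c, Hmmr, Ttk, Racgap1, Aspm, Nuf2 and Stmn1. With fewer genes, the BC57 counts were 4 and 3 for FF 2 and 0.5 ng and 7 for FFPE 50 ng against the reference, and differing changes numbered 1, 0 and 2 in these conditions. Leaving out single arrays gave urothelium counts of 0 to 1 (FFPE 50 ng against FF 100 ng), 0 to 2 (FFPE against FF, 2 ng) and 3 to 8 (0.5 ng), and 2 to 5 and 1 to 3 differing changes at FF 2 ng and FF 0.5 ng. In those with duplicates a lone array was assumed to vary like the other groups. The Nuf2 difference at FF 0.5 ng had a limma adjusted p of 0.0281 with all arrays and of 0.0526 to 0.126 without each of 8 of the arrays. Stmn1 changed sign: quantile normalization gave -0.0053 at FF 2 ng and 0.0099 at FFPE 0.5 ng, and leaving out arrays gave -0.10 to 0.18 at FF 2 ng and -0.38 to 0.063 at FF 0.5 ng. Under centring or quantile normalization these calls of named genes also changed, with no change of sign. After quantile normalization the differences of change were -0.97 for Bub1, -0.81 for Cenpe and 0.80 for Cenpa at FF 2 ng (Cenpa 0.97 after centring) and -0.74 for Cenpe at FFPE 50 ng. The quantile-normalized BC57 minus urothelium changes were 0.91 (Ccnb1, FF 2 ng), 0.97 (Cks2, FFPE 50 ng) and, newly called at FFPE 2 ng, 1.06 (Ccnb1), 1.17 (Nuf2) and 1.26 (Cdca3), with Nuf2 at 1.03 and Cdca3 at 1.09 after centring. The Cenpa rises in BC57 were 0.98 and 0.93 after quantile normalization. In urothelium, Cks2 at 2 ng was 0.65 and Cdca3 at 0.5 ng 0.78 after centring. Causes of these shifts were not tested.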
